A study of Yarrowia lipolytica with 35 samples.

Results

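The genes described here are 100 protein-coding genes of the yeast Yarrowia lipolytica whose messenger RNA was higher in nitrogen-limited stationary phase than in growth phase. They were chosen from 6448 protein-coding genes in a table of 7132 genes. A gene was taken when its group mean of log2(FPKM + 1), a length-scaled level, was higher at 32 h than in growth at pH 5.5 by 2 or more (4-fold on the FPKM + 1 scale) in each of the 4 pairs of strain and carbon source. In addition, the mean difference between pH 3.5 and pH 5.5 at 32 h had to lie within 0.8 of 0, and the mean difference between glycerol and glucose in growth within 1 of 0. The first condition alone was met by 209 genes, the first with the pH condition by 165, and the first with the carbon condition by 132. These measures chose the genes, so they are described below without a test.

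The strains DSM-3286 and DSM-21175 were grown in bioreactors with either glucose or glycerol as only carbon source. Growth-phase cells were collected at pH 5.5 only, after 8 h with glycerol and after 12 h with glucose, and stationary-phase cells at 32 h at pH 5.5 or pH 3.5. This gave 12 groups and 35 libraries, with 3 biological replicates in each group except DSM-3286 on glucose at 32 h and pH 5.5, which had 2 (replicates 1 and 3). The labels state no engineered change in either strain. Phase, culture age and nitrogen limitation changed together, so they cannot be told apart, and growth at pH 3.5 was not analysed here. In growth, carbon source and culture age also changed together, so a difference between glycerol and glucose there cannot be put down to either.

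Y. lipolytica is an oleaginous yeast. When nitrogen runs out while carbon remains, its cells stop dividing and can turn the remaining carbon into storage lipid, organic acids or polyols. In yeasts generally, entry into stationary phase goes with less ribosome production and with expression of genes for stress protection, use of reserves and recycling of cell material. The files give the 100 genes by locus tag without a symbol or product, so no role is assigned to any of them here, and they are called by their tags.

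Library totals ran from 6704058 to 25702157 reads, with a median of 12546196. Replicates of a group correlated at r = 0.969 to 0.9956 over all genes. In all, 5 libraries of DSM-21175 correlated less with both replicates of their group than those did with each other, by over 0.005 in r. They were growth on glycerol replicate 2, growth on glucose replicate 3, and replicate 3 of glycerol at pH 5.5, glucose at pH 5.5 and glycerol at pH 3.5. Of the 100 genes, 21 were at least 2-fold from the other replicates in the library of glucose at pH 5.5 (8.41% of all genes), 20 in that of growth on glucose (7.07%), 12 in that of glycerol at pH 3.5 (5.75%), 11 in that of growth on glycerol (5.22%) and 7 in that of glycerol at pH 5.5 (5.63%). Of the other libraries, replicate 2 of DSM-21175 in growth on glucose had 12 such genes (3.27%) and its replicate 1 on glucose at pH 5.5 had 11 (3.33%). Counts and named values that moved most clearly without these 5 libraries are also given without them. The 5 were picked by their distance from their replicates. Leaving them out can therefore lower the spread within groups and raise the number of calls, so higher counts without them are not a stronger result.

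The 100 genes went together from a small to a sizeable fraction of the messenger RNA. They held 0.18 to 0.37% of the reads of a growth library and 3.4 to 4.87% of the reads of a 32 h library. In DSM-3286 the share was 0.325% ± 0.001 (SD, n = 3) in growth on glucose and 4.015% ± 0.037 (SD, n = 2) at 32 h and pH 5.5, and on glycerol 0.221% ± 0.008 (SD, n = 3) and 4.28% ± 0.023 (SD, n = 3). In DSM-21175 it was 0.304% ± 0.056 and 4.242% ± 0.586 on glucose, and 0.188% ± 0.02 and 4.667% ± 0.303 on glycerol (SD, n = 3 each). No growth library came near a 32 h library in this share, a separation that the choice of the genes by their rise at 32 h brings about. The widest spread at 32 h was on glucose at pH 5.5 in DSM-21175, where the shares ran from 3.57 to 4.643% and the low value was the replicate that stands apart. At pH 3.5 the shares were 3.473% ± 0.071 and 3.722% ± 0.043 in DSM-3286 on glucose and glycerol, and 4.258% ± 0.198 and 4.017% ± 0.183 in DSM-21175 (SD, n = 3 each). The top 5 genes supplied 27.6% of the reads of the set at 32 h: YALI0B19030g, YALI0C05709g, YALI0D26389g, YALI0C08635g and YALI0A19228g. These are shares of a library, and in bulk cultures fewer cells that express a gene and less RNA per cell cannot be told apart.

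**Figure D1:**
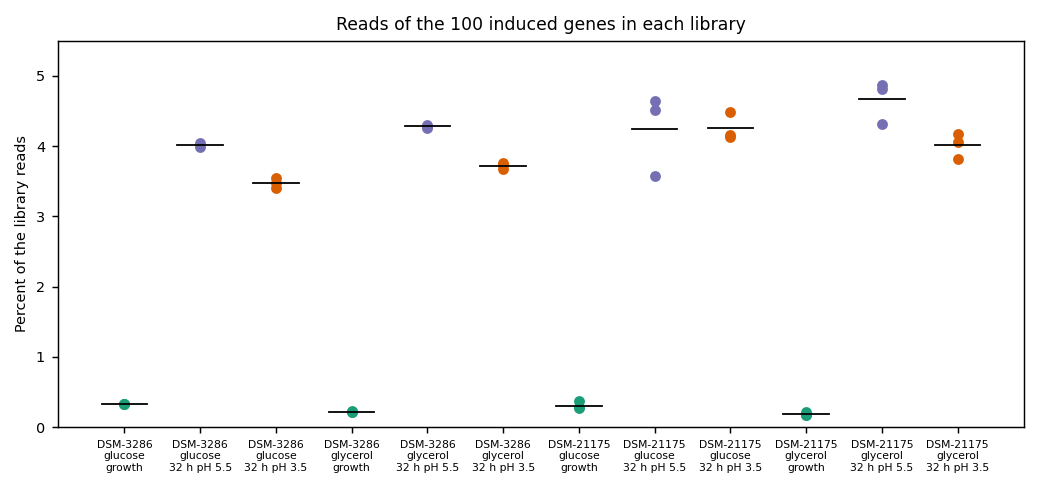
Percent of each library's reads that fell in the 100 genes (y axis), by strain, carbon source and phase (x axis). Points are libraries and lines are group means. Growth libraries lie between 0.18 and 0.37%, and 32 h libraries between 3.4 and 4.87%.

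Most of the set was weakly expressed in growth. The mean growth level on the log2(FPKM + 1) scale was under 1 for 24 genes, 1 to under 3 for 33, 3 to under 5 for 32, and 5 or more for 11. Their median was 2.5, against 5.13 for all coding genes, and 89 of the 100 were below that coding median. At 32 h the median of the set was 6.46, against 5.21 for all coding genes, and 80 were above it. Few became the most abundant messages of the cell: 5 were among the 100 highest coding genes at 32 h and 0 in growth. In a growth library 12 to 30 of the genes had under 10 reads and 0 to 7 had none, whereas at 32 h at most 1 had under 10. YALI0A00198g, YALI0A06457g, YALI0C18249g and YALI0D12947g, named after their values were seen, had under 10 reads in every growth library.

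The difference between 32 h and growth at pH 5.5, averaged over the 4 pairs, had a median of 3.45 and ran from 2.19 to 9.5, against a median of 0.03 for all coding genes. It was 3 or more for 65 genes, 4 or more for 38, 5 or more for 22 and 6 or more for 10. The median was 3.69 in DSM-3286 on glycerol and 3.1 on glucose, and 3.87 and 3.13 in DSM-21175. The largest of a gene's 4 differences was in DSM-21175 on glycerol for 56 genes, in DSM-3286 on glycerol for 31, in DSM-3286 on glucose for 10 and in DSM-21175 on glucose for 3. Within the limit that the choice set, 89 of the 100 genes were lower on glycerol than on glucose in growth, by a median of 0.47 log2 units across the set (a glycerol minus glucose value of -0.47, against -0.07 for all coding genes). Growth cells were collected at 8 h on glycerol and at 12 h on glucose, so carbon source and culture age cannot be told apart in these values. In 90 genes every 32 h library, at either pH, was above every growth library, as it was in 10.2% of coding genes, and in 93 without the 5 libraries that stand apart, when 12% of coding genes did so.

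**Figure D2:**
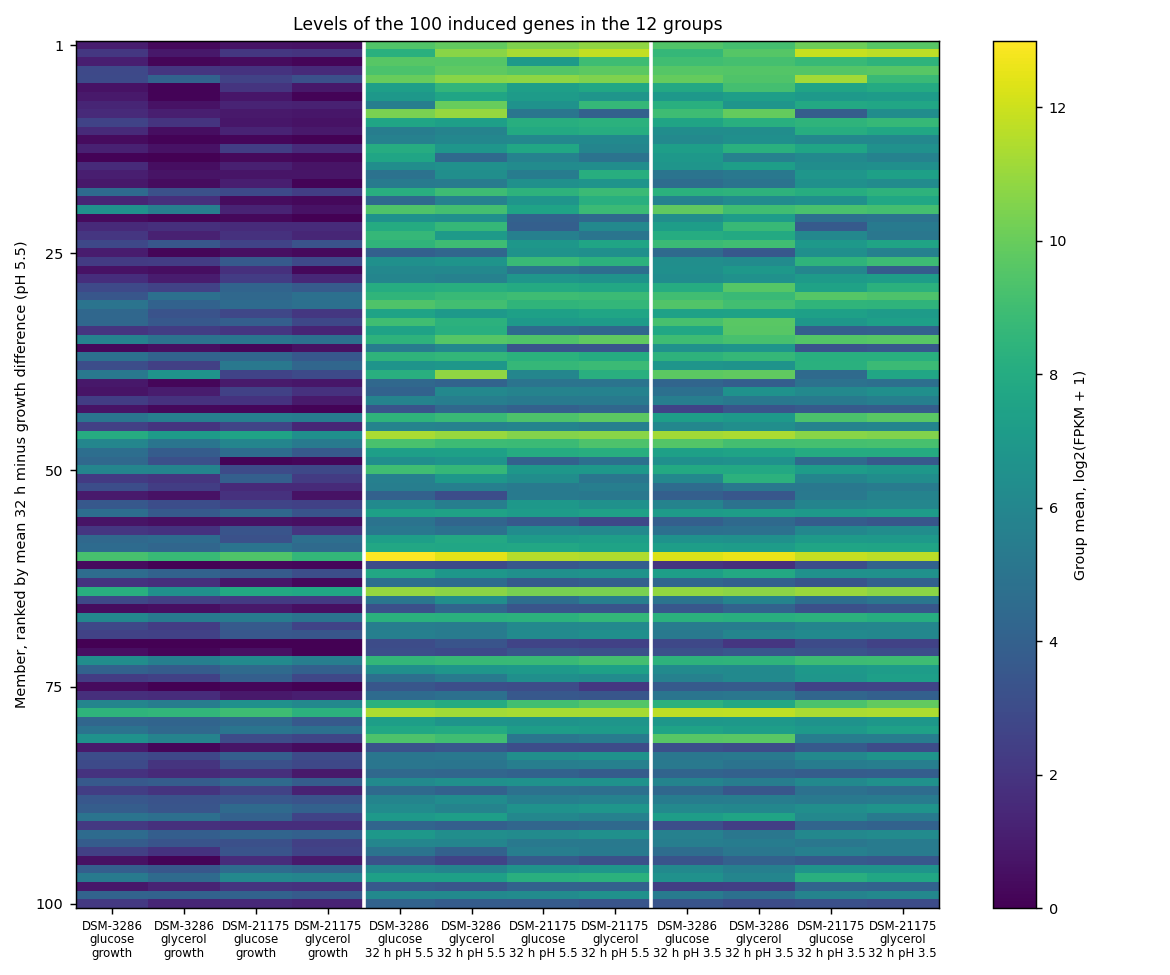
Group means of log2(FPKM + 1) (color) for the 100 genes (rows, ranked by the mean difference between 32 h and growth at pH 5.5) in the 12 groups (columns). The 4 growth groups on the left are darker than the 8 groups at 32 h, and the median of the genes' mean levels is 2.5 in growth and 6.46 at 32 h.

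The largest difference was that of YALI0A19228g, with a mean of 9.5 log2 units. In DSM-3286 its levels in growth were 0.41, 0.26 and 0.27 on glycerol and 1.1, 1.24 and 0.81 on glucose, and in DSM-21175 they were 0.75, 0.74 and 0.49 on glycerol and 0.9, 0.71 and 0.45 on glucose. At 32 h and pH 5.5 they were 9.92, 9.83 and 9.88 (glycerol) and 9.72 and 9.26 (glucose) in DSM-3286, and 10.95, 11.08 and 10.5 (glycerol) and 10.66, 10.58 and 10.27 (glucose) in DSM-21175. The gene had 3 to 28 reads in a growth library, so that its level there was near the detection floor, and the 32 h levels were high in all 11 libraries. At pH 3.5 it ran from 9.05 to 10.23 over 12 libraries.

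YALI0B19030g had the second largest difference, 8.77, and supplied the most reads of the set at 32 h, 0.286% of a library on average. Its growth levels ran from 0.71 to 2.2 over 12 libraries with a median of 1.98. At 32 h and pH 5.5 it stood at 10.82, 10.59 and 10.59 on glycerol and at 8.54 and 8 on glucose in DSM-3286, and at 11.94, 12.21 and 11.27 on glycerol and 12.05, 11.92 and 9.99 on glucose in DSM-21175. The glucose libraries of DSM-3286 were the lowest, while in DSM-21175 the 2 carbon sources overlapped. YALI0E10219g, with a difference of 8.35, ran from 0.08 to 1.13 in growth and was between 8.17 and 9.81 at 32 h except in 1 library of DSM-21175 on glucose at pH 5.5. The replicates of that group gave 8.32, 8.31 and 4.65.

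The next genes in rank differed in how even they were. YALI0D08250g (7.5) was the most uniform of the 8 at 32 h, from 9.24 to 10.03 over the 11 libraries at pH 5.5 and from 9.46 to 9.7 over the 12 at pH 3.5, against 1.17 to 2.99 in growth. YALI0E04961g (6.64) was similarly level, from 6.77 to 7.67 and from 6.84 to 7.36 at the 2 pH values, and had 0 to 13 reads in a growth library. YALI0C05709g (7.29) was already at 2.13 to 4.22 in growth and reached 9.87 to 11.21 at pH 5.5. YALI0E28314g (6.87) went from at most 2 in growth to 7.32 to 8.74. YALI0A09196g (6.59), an annotated length of only 201 bases, was the most uneven of the 8, with levels from 4.93 to 10.25 at pH 5.5.

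A different kind of member was abundant before stationary phase and still higher at 32 h. YALI0D26389g had the highest level of the set at 32 h, with a mean of 12.07, from 11.21 to 13.11 at pH 5.5 and from 8.58 to 9.43 in growth. YALI0E14487g (mean 11.44 at 32 h), YALI0C08635g (10.91) and YALI0F25729g (10.72) had growth medians of 8.46, 7.24 and 7.8. Their mean differences were 2.73, 3.62 and 3.02, so the most abundant messages at 32 h were not those with the largest differences. The growth and 32 h libraries of these 4 genes did not overlap.

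**Figure D3:**
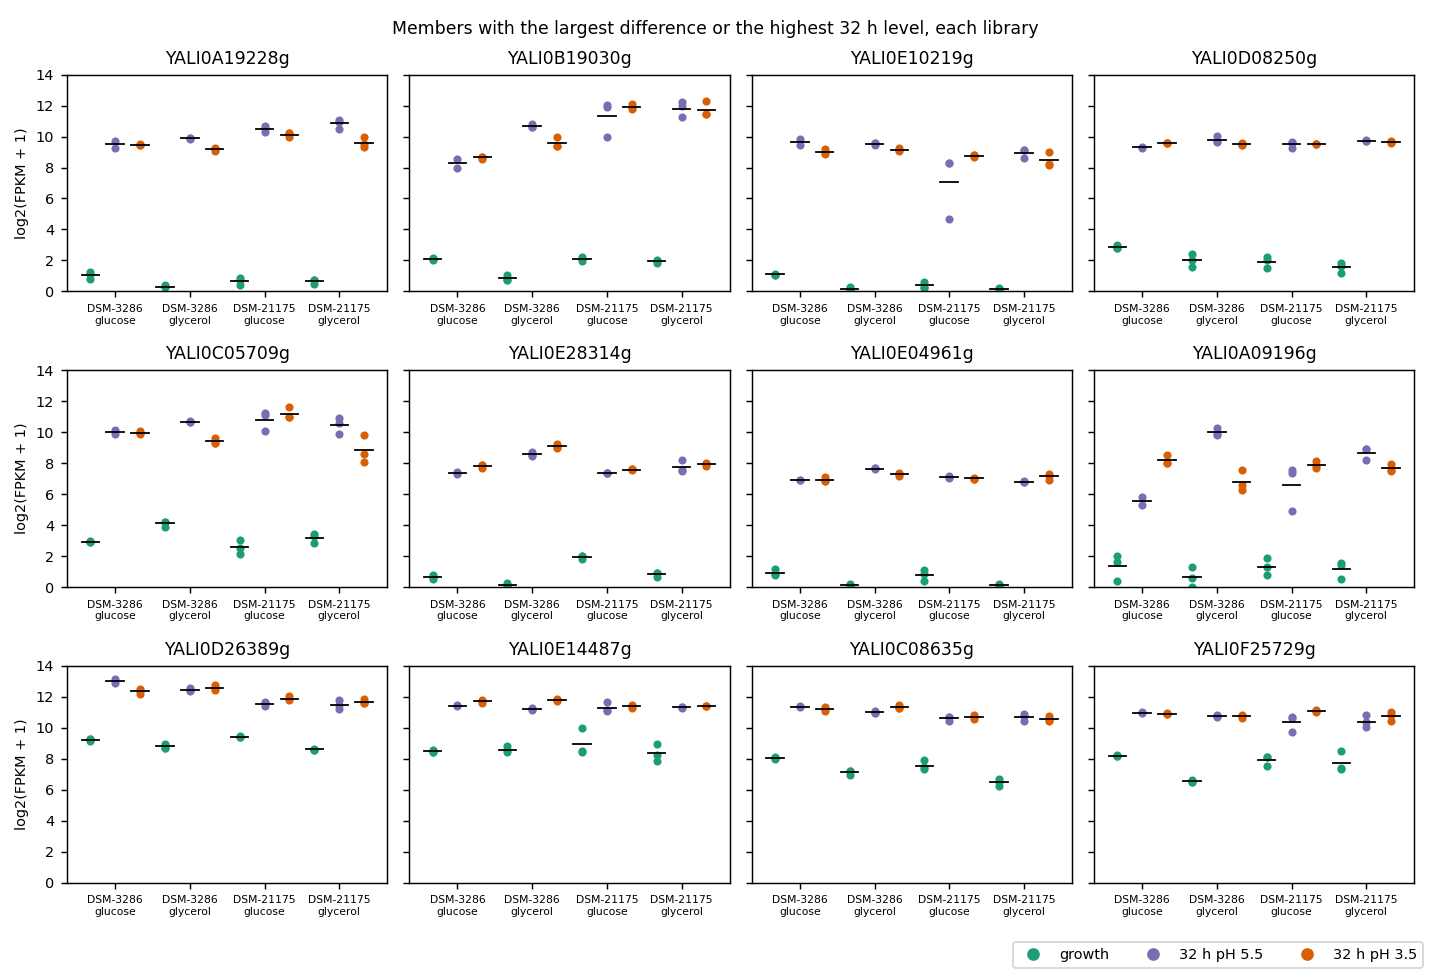
Level of the 8 genes with the largest difference (top 2 rows) and the 4 with the highest 32 h level (bottom row) in every library, as log2(FPKM + 1) on the y axis, by strain and carbon source. Colors mark growth (green), 32 h at pH 5.5 (purple) and 32 h at pH 3.5 (orange), and lines are group means. YALI0A19228g goes from at most 1.24 in growth to at least 9.05 at 32 h, and YALI0D26389g from at most 9.43 to at least 11.21.

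The size of the difference varied between pairs by a median of 1.32 log2 units within a gene, by under 1 in 30 genes and by 3 or more in 12. YALI0F19712g varied most: the difference was 9.86 on glycerol and 8.86 on glucose in DSM-3286 but 3.25 and 4.2 in DSM-21175. YALI0D00495g went the other way, with 3.6 and 2.84 in DSM-3286 and 8.21 and 6.26 in DSM-21175. Its growth levels in DSM-3286 were 5.36 to 6.62, against 0.53 to 1.92 in DSM-21175.

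All 100 genes were higher at 32 h and pH 3.5 than in growth in every pair, and 78 by 2 or more in all 4 pairs. The smallest value was 0.6, for YALI0C00297g in DSM-3286 on glycerol. The mean pH difference was limited by the choice, but single pairs were free to move: 33 genes had a pH difference beyond 1 in at least 1 pair, and 26 stayed within 0.5 in all 4. In 4 genes one pair was higher by 1 or more at pH 3.5 and another lower by 1 or more: YALI0A09196g, YALI0B07117g, YALI0F07106g and YALI0F19712g, which are named here after their values were seen.

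The values just inside and just outside the limits were close. The lowest of the 4 differences was 2 for YALI0E11649g and 2.01 for YALI0F00704g, which were taken, and 1.99 for YALI0E16775g and 1.95 for YALI0D17688g, which were not. The mean pH difference was 0.79 for YALI0F05852g and -0.77 for YALI0D22638g inside, and -0.81 for YALI0E07381g and -0.83 for YALI0B04202g outside. The mean growth difference of glycerol against glucose was -0.99 for YALI0C08635g and -0.98 for YALI0D25388g inside, and -1.02 for YALI0E25047g and -1.03 for YALI0F09163g outside. Of the 209 genes that met the phase condition, 34 were below and 10 above the pH limit, and 76 below and 1 above the carbon limit. The carbon limit applied to growth values, in which carbon source and culture age changed together.

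The genes were spread over the genome. Going by the chromosome letter in the tag, chromosomes A to F held 12, 16, 17, 18, 21 and 16 of them, which is 1.75, 1.69, 1.82, 1.64, 1.43 and 1.21% of their coding genes. Neighbours in tag order formed 4 pairs: YALI0E08052g with YALI0E08074g, YALI0A20152g with YALI0A20174g, YALI0B16148g with YALI0B16170g, and YALI0B01408g with YALI0B01430g. In a RefSeq annotation of another assembly (ASM176148v1), 3 of these pairs also had no coding gene between them, and 1 could not be looked up. Levels at 32 h were apart for YALI0E08052g and YALI0E08074g and closer in the other pairs. Medians at pH 5.5 were 5.05 and 5.62 for YALI0A20152g and YALI0A20174g, and 6.27 and 6.39 for YALI0B16148g and YALI0B16170g. They were 6.71 and 6.02 for YALI0B01408g and YALI0B01430g. In growth the medians of these pairs were 0.18 and 3.3, 4.31 and 0.83, and 3.9 and 3.05. At 32 h and pH 5.5 on glycerol in DSM-21175, YALI0E08052g was at 4.65, 4.5 and 3.93 and YALI0E08074g at 8.3, 8.65 and 7.98, and their mean differences were 3.7 and 6.35. YALI0B01408g and YALI0B01430g were alike in theirs, 3.08 and 2.89. The 190 coding neighbours outside the set had a median difference of 0.17, and 25.8% of them reached 1, against 18.8% of all coding genes. The median annotated length was 1366.5 bases, against 1245 for all coding genes.

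The strain and carbon contrasts that follow, and the differences of changes, were not themselves measures of the choice, but they use the same libraries. The choice also limited the mean pH difference at 32 h and the mean growth carbon difference. This can limit the carbon and pH effects that the genes show, so their counts are not independent of the choice. The set also had higher levels at 32 h than all coding genes (a median of 6.46 against 5.21), which can raise the number of calls there. Counts were tested with edgeR's quasi-likelihood test on all 35 libraries, with Benjamini-Hochberg adjustment across the 6537 genes that could be tested, and a gene is called where its adjusted p is below 0.05. All 100 genes were among those tested, which the 32 h libraries alone could bring about.

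In growth the strains differed in 64 of the 100 genes, 30 higher and 34 lower in DSM-21175, against 64.8% of all genes tested (34.3% higher and 30.5% lower). By at least 2-fold, 14 were higher and 16 lower, against 6.91% and 9.13% of all genes (16.0% in either direction). Neither the calls nor the 2-fold counts are read against all genes, since the growth levels of the set were low. Their median was 2.5 against 5.13, and 12 to 30 of its genes had under 10 reads in a growth library. YALI0D00495g was lower in DSM-21175 by 6.13 log2 units (SE 0.314, edgeR adjusted p = 8.09e-15). It had 965, 964 and 1876 reads on glycerol and 2647, 2134 and 2569 on glucose in DSM-3286, but 10, 17 and 8, and 65, 43 and 12, in DSM-21175, and the strains did not overlap. YALI0E11649g had 36 to 138 reads in DSM-3286 and 0 to 2 in DSM-21175, in which its fold change of -6.3 (SE 0.388, edgeR adjusted p = 3.89e-14) rests on few reads. It was -8.07 without the 5 libraries that stand apart and -3.6 with limma on the deposited log2 values. YALI0C04477g was lower by 3.54 (SE 0.173, edgeR adjusted p = 5.84e-16).

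YALI0D02167g and YALI0E28314g were among those higher in DSM-21175 in growth. YALI0D02167g was at 2.31, 2.38 and 2.72 (glycerol) and 3.16, 2.92 and 3.18 (glucose) in DSM-3286, and at 4.22, 4.9 and 3.68, and 4.68, 4.72 and 6.29, in DSM-21175. The strains did not overlap, and the log2 fold change was 2.24 (SE 0.249, edgeR adjusted p = 1.87e-08), or 1.66 without the 5 libraries that stand apart. YALI0E28314g was higher by 2.32 (SE 0.231, edgeR adjusted p = 7.99e-10), and by 0.98 with limma on the deposited log2 values, a scale that understates changes near 0. The value of YALI0A20152g rests on few reads, 0 to 6 in DSM-3286 and 4 to 14 in DSM-21175. It was 2.38 with edgeR (SE 0.558, edgeR adjusted p = 5.18e-04) but 0.2 and not called with limma on the deposited log2 values (adjusted p = 0.117, with adjusted p from 2.96e-05 to 0.117 over the alternatives).

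At 32 h the strains differed in 85 of the 100 genes, 43 higher and 42 lower in DSM-21175, against 80.6% of all genes tested (43.0% higher and 37.6% lower). By at least 2-fold, 17 were higher and 16 lower, against 6.72% and 14.5% of all genes (21.3% in either direction). These counts are not read against all genes either, since the set was chosen by its rise at 32 h in both strains. Calls in both phases were made for 56 of the 100 genes, against 54.4% of all genes tested. The direction was the same for 40 (43.2% of all genes) and opposite for 16 (11.2%). A further 29 were called at 32 h alone (26.2%), 8 in growth alone (10.4%) and 7 in neither (9.01%). The shares that involve growth calls are not read against all genes, since the growth levels of the set were low. Whether a strain difference changed between the phases was not tested. The lower genes included the largest differences. YALI0F19712g was lower in DSM-21175 by 4.87 (SE 0.387, edgeR adjusted p = 2.05e-11), YALI0E17611g by 4.12 (SE 0.08, edgeR adjusted p = 1.64e-26) and YALI0C04477g by 4.02 (SE 0.122, edgeR adjusted p = 1.31e-21). For YALI0E17611g the levels at pH 5.5 were 8.24, 8.08 and 8.27 on glycerol and 7.59 and 7.44 on glucose in DSM-3286, and 4.53, 4.48 and 4.01 and 4.68, 4.68 and 4.2 in DSM-21175. At pH 3.5 they were 9.73, 9.61 and 9.54 and 7.81, 7.87 and 7.56 in DSM-3286, and 3.84, 4.07 and 4.16 and 4.01, 3.93 and 3.92 in DSM-21175. Every library of DSM-3286 was above every library of DSM-21175, although the genes had been chosen for a higher level at 32 h in both strains.

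Among the genes higher in DSM-21175 at 32 h, YALI0B19030g led with 2.49 (SE 0.179, edgeR adjusted p = 1.48e-12). It was followed by YALI0A08998g with 2.3 (SE 0.126, edgeR adjusted p = 1.85e-15) and YALI0C22792g with 2.18 (SE 0.117, edgeR adjusted p = 5.78e-16). At pH 5.5 YALI0C22792g stood at 6.71, 6.64 and 6.78 on glycerol and 6.74 and 6.33 on glucose in DSM-3286, and at 8.31, 8.33 and 8.37 and 8.58, 8.58 and 9.26 in DSM-21175. The carbon sources lay close together within each strain, and the strains did not overlap. The strain difference of YALI0D00495g at 32 h was -0.59 (SE 0.164, edgeR adjusted p = 2.03e-03), against -6.13 in growth. YALI0E28314g was 2.32 higher in DSM-21175 in growth and 0.55 lower at 32 h (a log2 fold change of -0.55, SE 0.077, edgeR adjusted p = 2.12e-07).

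**Figure D4:**
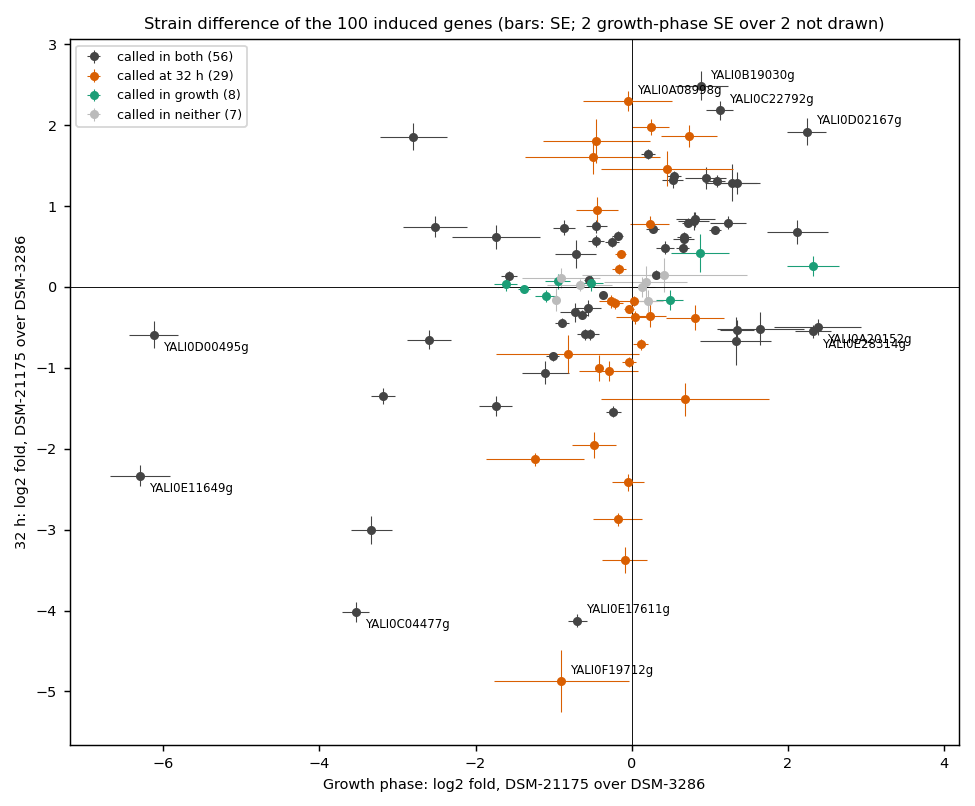
Log2 fold change of DSM-21175 over DSM-3286 in growth (x axis) and at 32 h (y axis) for the 100 genes, with SE bars and colors for the calls. Bars of 2 genes with almost no growth reads are not drawn. Of the 56 genes called in both phases, 40 lie in the quadrants of equal sign and 16 in the others, against 43.2% and 11.2% of all genes tested.

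Glycerol and glucose were compared at 32 h over both strains and pH values. Of the 100 genes 29 were higher and 12 lower on glycerol, in all close to the 43.2% called over all genes (22.2% higher and 21.0% lower). By at least 2-fold these were 6 and 1, against 2.13% and 2.62% of all genes (4.74% in either direction). The count of lower genes was 19 without replicate 3 of DSM-21175 on glucose at pH 5.5, and 24 without the 5 libraries that stand apart. Without those 5, 61 of the 100 genes were called, 37 higher and 24 lower, against 52.6% of all genes (25.9% and 26.6%). YALI0B07117g was higher on glycerol by 2.08 (SE 0.176, edgeR adjusted p = 7.82e-10). At pH 5.5 it was at 10.92, 10.79 and 10.85 on glycerol and 8.26 and 8.17 on glucose in DSM-3286, and at 8.12, 7.94 and 8.51 and 5.98, 6.43 and 5.52 in DSM-21175. At pH 3.5 the difference was 0.13 in DSM-3286 and 3.35 in DSM-21175. YALI0A11605g was higher on glycerol by 1.59 (SE 0.158, edgeR adjusted p = 1.32e-08).

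YALI0F07106g was higher on glycerol by 1.11 (SE 0.267, edgeR adjusted p = 1.66e-03). It was not called in the pH 5.5 libraries alone, where the value was 1.75 (adjusted p = 0.0957), nor in the pH 3.5 libraries alone, where it was 0.43 (adjusted p = 0.0798). Its glucose libraries of DSM-21175 at pH 5.5 gave 6.74, 6.78 and 2.84. YALI0A20152g was lower on glycerol by 1.43 (a log2 fold change of -1.43, SE 0.097, edgeR adjusted p = 4.42e-12), with 4.31, 4.44 and 4.55 against 7.54 and 7.7 on glucose at pH 5.5 in DSM-3286. In DSM-21175 the same libraries gave 5.05, 4.87 and 4.88 against 5.36, 5.53 and 6.34. In the pH 3.5 libraries alone its value was -0.81. YALI0B21494g was lower too, with -0.82 (SE 0.099, edgeR adjusted p = 2.12e-07), and -0.53 in the pH 3.5 libraries alone. YALI0E11209g was lower by a smaller amount, -0.41 (SE 0.076, edgeR adjusted p = 7.08e-05), and was not called in the pH 5.5 libraries alone (-0.28, adjusted p = 0.0889).

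Differences of changes were tested next. The difference of the carbon effect between strains at 32 h was called in 33 genes, 19 higher and 14 lower, against 31.1% of all genes tested (15.6% higher and 15.5% lower). The difference of the pH effect between strains was called in 34, 24 higher and 10 lower, against 41.0% (20.9% and 20.1%), and that of the pH effect between carbon sources in 25, 15 higher and 10 lower, against 19.5% (9.81% and 9.65%). Without the 5 libraries that stand apart these counts were 55, 58 and 45, and 43.3, 53.7 and 32.1% of all genes. By at least 2-fold, the first was higher in 2 and lower in 7 genes, against 1.27% and 3.32% of all genes (4.59% in either direction). The second was higher in 8 and lower in 3, against 5.29% and 1.93% (7.22%), and the third higher in 4 and lower in 2, against 1.01% and 2.17% (3.18%).

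YALI0D22638g showed the clearest difference of the pH effect between strains. In DSM-3286 it went from 8.84, 8.79 and 8.85 at pH 5.5 to 7.07, 7.17 and 6.85 at pH 3.5 on glycerol, and from 8.48 and 8.38 to 7.2, 7.41 and 7.22 on glucose. In DSM-21175 it stood at 9.78, 9.63 and 9.81 at pH 5.5 and 9.73, 9.87 and 9.37 at pH 3.5 on glycerol, and at 9.36, 9.42 and 9.35 and 9.31, 9.29 and 9.36 on glucose. The pH values were apart in DSM-3286 and overlapped in DSM-21175, and the difference of the 2 changes was 1.46 (SE 0.125, edgeR adjusted p = 5.69e-10).

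YALI0A09196g differed most in its pH effect between carbon sources, by -3.8 (SE 0.434, edgeR adjusted p = 1.29e-06). In DSM-3286 on glycerol it was at 10.25, 9.86 and 9.84 at pH 5.5 and at 6.23, 6.57 and 7.57 at pH 3.5. On glucose it was at 5.79 and 5.31 at pH 5.5 and at 7.99, 8.01 and 8.54 at pH 3.5. It was thus lower at pH 3.5 on glycerol and higher on glucose, with no overlap. In DSM-21175 it was at 8.88, 8.93 and 8.21 and then 7.58, 7.49 and 7.96 on glycerol, and at 7.35, 7.53 and 4.93 and then 7.78, 8.1 and 7.68 on glucose.

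YALI0F19712g had the largest positive value of this contrast, 2.79 (SE 0.685, edgeR adjusted p = 5.70e-03), but its strata were 0.454 in DSM-3286 and 5.12 in DSM-21175. The latter involves libraries that stand apart. Glycerol at pH 3.5 gave 7.03, 8.18 and 3.92, and glucose at pH 5.5 gave 4.09, 4.14 and 7.04. The third replicate lay far from the others in both groups, and without the 5 libraries the value was 2.49.

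**Figure D5:**
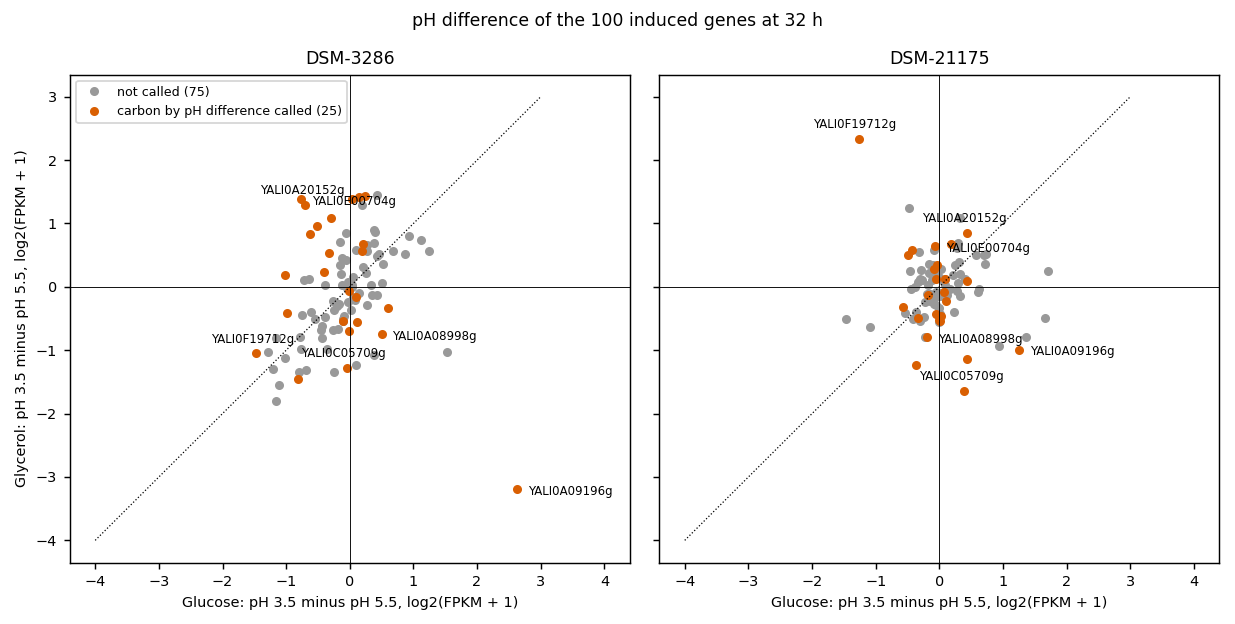
Difference between pH 3.5 and pH 5.5 at 32 h in log2(FPKM + 1), on glucose (x axis) and on glycerol (y axis), for the 100 genes in DSM-3286 (left) and DSM-21175 (right). Each point is a gene, orange where the difference of the pH effect between carbon sources was called (25) and gray otherwise (75), and the dotted line marks equal effects. YALI0A09196g lies lowest in DSM-3286 and YALI0F19712g highest in DSM-21175.

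None of the 100 genes has a symbol in the files, and the 71 genes that do are described by the submitters' choice of names, many of them for transcription regulators. They are not members of the set, and their comparison, added after the data were seen, is the phase contrast that also chose the set. Of these 71, 39 were higher and 19 lower at 32 h than in growth at pH 5.5, so 81.7% were called. Of all genes 86.1% were called, 42.9% higher and 43.2% lower. By at least 2-fold, 18 of the 71 were higher and 3 lower, against 21.5% and 15.8% of all genes (37.2% in either direction). These counts are out of 71 and are not percentages. From a list of 14 regulators of stress, nutrient, pH and cell-cycle responses, 12 were present, of which 5 were higher, 5 lower and 2 not called, with a median of 0.11. HOY1, a homeodomain protein needed for hyphal growth in Y. lipolytica, was the one symbol that met the phase condition, with a change of 4.18. No p-value is given for HOY1, since that condition picked it out. HOY1 was kept out of the set by a mean pH difference of -0.97 and a mean growth carbon difference of -1.04. RIM101, a factor of the response to ambient pH, was higher by 1.72 (SE 0.063, edgeR adjusted p = 9.47e-21). SWI5 and YOX1, cell-cycle regulators in Saccharomyces cerevisiae, were lower, with -3.26 (SE 0.082, edgeR adjusted p = 1.14e-24) and -2.52 (SE 0.098, edgeR adjusted p = 3.28e-20). SWI5 was at -0.46 and -3.10 on glycerol and glucose in DSM-3286 and at -4.62 and -4.87 in DSM-21175. YOX1 was at -1.16 and -2.03, and at -3.63 and -3.28. MBP1, from the same list, was lower by less, with -0.49, and stood at 0.09 in DSM-3286 on glycerol. MSN4 and MHY1, related to zinc finger factors of the stress response in S. cerevisiae, had uneven strata, and the difference of the phase change between strains was not tested for them. MSN4 was at 2.77 and 1.29 on glycerol and glucose in DSM-3286 and at -1.27 and -1.73 in DSM-21175. MHY1 was at 2.74 and 1.29 in DSM-3286 and at -0.05 and -1.61 in DSM-21175. AZF1 and NRG1, from the same list, were uneven as well, and this was not tested for them either. AZF1 was at 1.57 and 0.11 in DSM-3286 and at -3.55 and -1.59 in DSM-21175. NRG1 was at 3.225 and 1.39, and at 0.10 and -0.56. TUP1 was lower in every stratum, with -0.37 (SE 0.047, edgeR adjusted p = 3.09e-08), and RME1 and TYE7 were not called.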

How the data were processed

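Total RNA from bioreactor cells was made into strand-specific libraries from polyA-selected RNA, per the labels' protocols. The authors deposited raw counts of reads per gene with gene lengths, per the file headers, and a table named log2 FPKM. Tools named in the submitters' processing notes are edgeR, BWA 0.7.12-r1039 and featureCounts 1.5.1. Their roles, the genome build and the strandedness of counting were "not given in the sources used here". Thus overlapping or near-identical genes may share reads. The deposited log2 values lay within 0.05 of log2(FPKM + 1) recomputed from counts and effective lengths, with 1 factor per library, for 99.9% of values. This scale understates the change of genes near 0. All 35 columns of each table were matched to samples by name.

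Groups and replicate numbers come from the labels. The set was chosen on the deposited log2 values. Tests used the deposited counts in edgeR 4.0.16 (R 4.3.3): filterByExpr by group kept 6537 genes, libraries were scaled by TMM (factors 0.865 to 1.176), and a robust quasi-likelihood fit had 1 coefficient per group, with 23 residual degrees of freedom and 14.8% biological variation. Comparisons average their strata. A log2 fold change's SE is its size over the square root of F. Scripts were tested on simulated data. Library totals of 6704058 to 25702157 reads set the precision, and p-values cover the spread between replicates. All 34 replicate pairs differed by more than counting noise (chi-square per gene at least 3.37), and every library counted separately.

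The genes, the lists and the tests were chosen with earlier results of these data known. Genes named are the 8 with the largest mean difference, the 4 with the highest 32 h level, per tested comparison up to 3 higher and 3 lower called genes whose strata share a sign and whose mean log2 CPM is at least 3, those next to each threshold, adjacent pairs, and the listed regulators. The comparison of genes with a symbol was added after the data were seen, and the 71 symbols were paired with tags by their values. A RefSeq gene table of another assembly (ASM176148v1) matched 6682 of 7132 IDs and 94 of the 100 genes by gene ID, gave them no names beyond locus tags, and served for neighbours only. Lists by product description and promoter motifs were not analysed here. Alternatives were RLE scaling, no filter, DESeq2 1.42.0, limma 3.58.1 on the deposited log2 values, only the libraries compared, a replicate block, 1 pH alone, a 2-fold minimum, other limits for the choice, each library left out in turn, and, added after the data were seen, leaving out the 5 libraries that stand apart, defined by a gap of over 0.005 in r.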

Additional observations from a re-analysis of the deposited data

Results flagged for a closer look

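The 18 named genes and comparisons below were picked out because a change differed between strains or carbon sources by the edgeR test of the difference itself, and no explanation was weighed. Values are log2 differences of changes at 32 h over both strata.

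The glycerol effect was higher in DSM-21175 than in DSM-3286 for YALI0A20152g (1.57), YALI0D00495g (0.99) and YALI0A11605g (0.97), and lower for YALI0E02024g (-2.14), YALI0F18832g (-1.72) and YALI0B19030g (-1.62). Without the 5 libraries that stand apart the value of YALI0D00495g was 0.71. For YALI0F18832g, glycerol and glucose levels at pH 5.5 were 5.79, 6.14 and 6.21 against 4.44 and 3.78 in DSM-3286. In DSM-21175 they were 5.44, 5.65 and 6.27 against 5.62, 5.77 and 6.04, so the carbon sources were apart in one strain and overlapped in the other. YALI0E02024g was uneven between replicates in DSM-21175, with 5.52, 6.21 and 7.38 on glucose at pH 5.5, and its value without the 5 libraries that stand apart was -1.58.

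The effect of pH 3.5 was higher in DSM-21175 for YALI0D22638g (1.46), YALI0C00297g (1.32) and YALI0E17655g (1.1), and lower for YALI0E04510g (-1.30), YALI0E17611g (-1.27) and YALI0C13574g (-0.79). Without the 5 libraries the values were 0.91 for YALI0C00297g and 0.88 for YALI0E17655g. YALI0C00297g went from 3.47, 4.39 and 4.01 at pH 5.5 to 2.31, 2.44 and 2.46 at pH 3.5 on glycerol in DSM-3286. In DSM-21175 it was at 4.46, 4.84 and 3.99 and then 4.04, 3.67 and 4.57, which overlap. YALI0C13574g, on glycerol, went from 6.16, 6.11 and 5.9 to 6.77, 6.88 and 6.74 in DSM-3286 and from 3.33, 3.54 and 3.44 to 3.26, 3.68 and 3.85 in DSM-21175.

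The effect of pH 3.5 was higher on glycerol than on glucose for YALI0F19712g (2.79), YALI0E00704g (1.45) and YALI0A20152g (1.29), and lower for YALI0A09196g (-3.80), YALI0C05709g (-1.51) and YALI0A08998g (-0.89). Without the 5 libraries the values were -1.82 for YALI0C05709g and -1.14 for YALI0A08998g. In DSM-3286, YALI0E00704g went from 6.74, 6.95 and 6.85 to 8.17, 8.22 and 8.29 on glycerol and from 8.1 and 8.02 to 7.35, 7.66 and 6.87 on glucose. YALI0C05709g went from 10.67, 10.7 and 10.67 to 9.3, 9.3 and 9.6 on glycerol and from 10.13 and 9.87 to 9.93, 9.85 and 10.07 on glucose. The pH values were apart on glycerol for both genes and overlapped on glucose for the latter only.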

How the results depend on the processing

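The set itself depends on its limits: it held 204 genes with a phase limit of 1.5, 58 with 2.5, 48 with a carbon limit of 0.5 and 79 with a pH limit of 0.5. Chosen on log2 CPM from the counts it held 98 genes, 74 of them in common, and without the 5 libraries that stand apart (added after the data were seen) 103, with 88 in common. With each of the 35 libraries left out in turn it held 94 to 105 genes, at least 92 in common, and 71 of the 100 were kept every time.

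Of the 36 tests of single named genes, none was reversed under the alternatives run, and 4 lost the call in some setting, none of them on leaving out 1 library. Besides those given beside their results, YALI0A11605g missed the threshold for the strain difference of the carbon effect with only the libraries compared (0.977, adjusted p = 0.0513, with adjusted p from 5.57e-05 to 0.0513 over its alternatives). The adjusted p of YALI0F07106g ran from 8.62e-08 to 0.0957 and that of YALI0E11209g from 4.16e-07 to 0.0889.

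Without the 5 libraries, the carbon effect between strains was called higher in 29 genes and lower in 26, against 20.7% and 22.6% of all genes. The pH effect between strains was lower in 24, against 24.9%. The pH effect between carbon sources was higher in 24 and lower in 21, against 16.9% and 15.3%. Carbon at 32 h was lower in 24, against 26.6%. The count of genes lower for carbon was 20 in the pH 3.5 libraries alone, and the pH effect between strains was lower in 16 with only the libraries compared. The cause was not tested. A 2-fold minimum left 14 and 16 (strain in growth, higher and lower), 17 and 16 (strain at 32 h), 6 and 1 (carbon), 2 and 7 (carbon between strains), 8 and 3 (pH between strains), 4 and 2 (pH between carbon sources), and 18 and 3 genes with a symbol.

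Leaving out 1 library gave 27 to 31 higher and 32 to 37 lower for strain in growth, 39 to 44 and 37 to 43 for strain at 32 h, 27 to 32 and 10 to 19 for carbon, 14 to 19 and 13 to 16 for carbon between strains, 18 to 28 and 7 to 14 for pH between strains, 11 to 17 and 9 to 14 for pH between carbon sources, and 39 to 40 and 19 for genes with a symbol. The upper value of 19 for carbon came from leaving out replicate 3 of DSM-21175 on glucose at pH 5.5.

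Pairing by replicate number was looked at over both strains together. Of 187 pairs with the same number, 20 correlated over 0.1 in their deviations, and 14 of 35 libraries lay closest to their own number. Most of the libraries that stand apart share a replicate number within the same strain. Pairing by number within a strain was not tested. With a replicate block the counts were 29 and 34 for strain in growth, 42 and 40 for strain at 32 h, 29 and 12 for carbon, 19 and 14 for carbon between strains, 24 and 9 for pH between strains, and 12 and 10 for pH between carbon sources. RLE scaling moved no median of all genes by over 0.1. Depth limits growth levels, where 12 to 30 of the genes had under 10 reads in a library.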
